A study of Saccharomyces cerevisiae with 24 samples.

Results

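The response of the laboratory yeast S288C to caffeine was described across 6400 tested transcripts, called genes from here on, from the 6 libraries labelled BY4742 of the 24 libraries in the series. The 6 libraries were chosen by their labels alone, 3 in synthetic defined medium without caffeine (libraries 25, 33 and 41) and 3 in the same medium with 20 mM caffeine for 4 h (libraries 29, 37 and 45). Total RNA was taken at an O.D. of 0.4, and libraries of its poly(A) fraction came from a stranded kit. The files hold kallisto's estimated counts for 6713 transcripts, of which edgeR's filter on low counts left 6400. BY4742 is a haploid derivative of S288C of mating type alpha that carries deletions at HIS3, LEU2, LYS2 and URA3, in both groups alike. The other 18 libraries are 3 without and 3 with caffeine of YPS606, Y55 and UWOPS87_2421, and they enter only where the response of S288C is set against theirs. The labels do not say whether the 3 libraries of a group came from separate cultures, so p-values measure the spread between these libraries, which may be technical.

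Caffeine is a purine analogue that inhibits TORC1, the kinase complex that ties growth to nitrogen supply. Active TORC1 keeps the genes for ribosomal proteins on through Sch9 and Sfp1, and holds the activators of genes for poor nitrogen sources (Gln3 and Gat1) and of the general stress response (Msn2 and Msn4) away from the nucleus. Caffeine is also known as an agent that sets off the cell wall integrity cascade, in which Pkc1 and the kinase Slt2 act on wall synthesis genes, and yeast exports drugs through ABC transporters under Pdr1 and Pdr3.

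Caffeine library 37 stood apart from caffeine libraries 29 and 45. Over genes, which are not independent replicates, its log2 CPM (counts set to a common library total with edgeR's TMM factors) correlated with theirs at r = 0.968 and 0.967, against 0.992 between 29 and 45 and 0.991 to 0.992 within the group without caffeine. Library 37 also had the fewest counts of the 6, 13967433, where the other 5 had 16909110 to 24942687. Among the genes called higher in caffeine it was the lowest of the 3 caffeine libraries for 1008 of 1763, and among the genes called lower it was the highest for 1007 of 1599. What set it apart is not given by the labels and was not tested. Several results that rest on it are also given without it, though not all. The labels were checked against the deleted genes. LEU2, URA3 and LYS2 had 0 to 5 counts in each of the 6 libraries, HIS3 had 1693 to 4201, which is an allele deleted only in part, and MET17, intact in BY4742, had 1018 to 4754. The alpha-factor gene MF(ALPHA)1 had 8803 counts or more in each library and HMRA1, the a1 gene, at most 1. In the other strains, libraries of a group disagreed in URA3, the orotidine phosphate decarboxylase gene. In Y55 it had 41, 725 and 1414 counts without caffeine (libraries 27, 35 and 43) and 10, 270 and 2341 in caffeine (libraries 31, 39 and 47). In UWOPS87_2421 it had 1, 2114 and 1838 counts without caffeine (libraries 28, 36 and 44) and 1, 885 and 1057 in caffeine (libraries 32, 40 and 48). In YPS606 it had 13147 counts or more in each library. Libraries 27, 28, 31 and 32 thus stood apart from the rest of their groups, the labels give no reason, and comparisons with these strains are given with and without them.

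Caffeine changed 3362 of 6400 genes of S288C (52.5%), which passed an adjusted p of 0.05 in edgeR's quasi-likelihood test, 1763 (27.5%) higher and 1599 (25.0%) lower in caffeine. Without library 37, 3406 genes passed, 3088 of them shared with the fit of all libraries, and no called gene changed its sign. A change of at least 2-fold was found for 706 higher and 351 lower genes. The groups did not overlap in 4044 genes (63.2%). These directions are relative to TMM factors, under which the median log2 fold change of all genes was 0.03. Scaling to total counts alone moved that median by 0.40, to 0.42, and 84.4% of its 3928 calls were then higher, against 52.4% with TMM. The list medians of mitochondrial ribosomal proteins, ribosome biogenesis, both RNA polymerases I and III, the endoplasmic reticulum's folding response, the proteasome, sulfate assimilation, purines, Gcn4 targets, ergosterol, antioxidants and DNA damage turned from negative to positive with it, and in each of the 43 lists at least as many members were then called higher and at most as many lower. The medians of gene lists below are those under TMM, to be read against the 0.03 of all genes, and the counts of members are to be read against the shares of 27.5% higher and 25.0% lower. The plot of list medians shows the 43 lists in order.

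**Figure D1:**
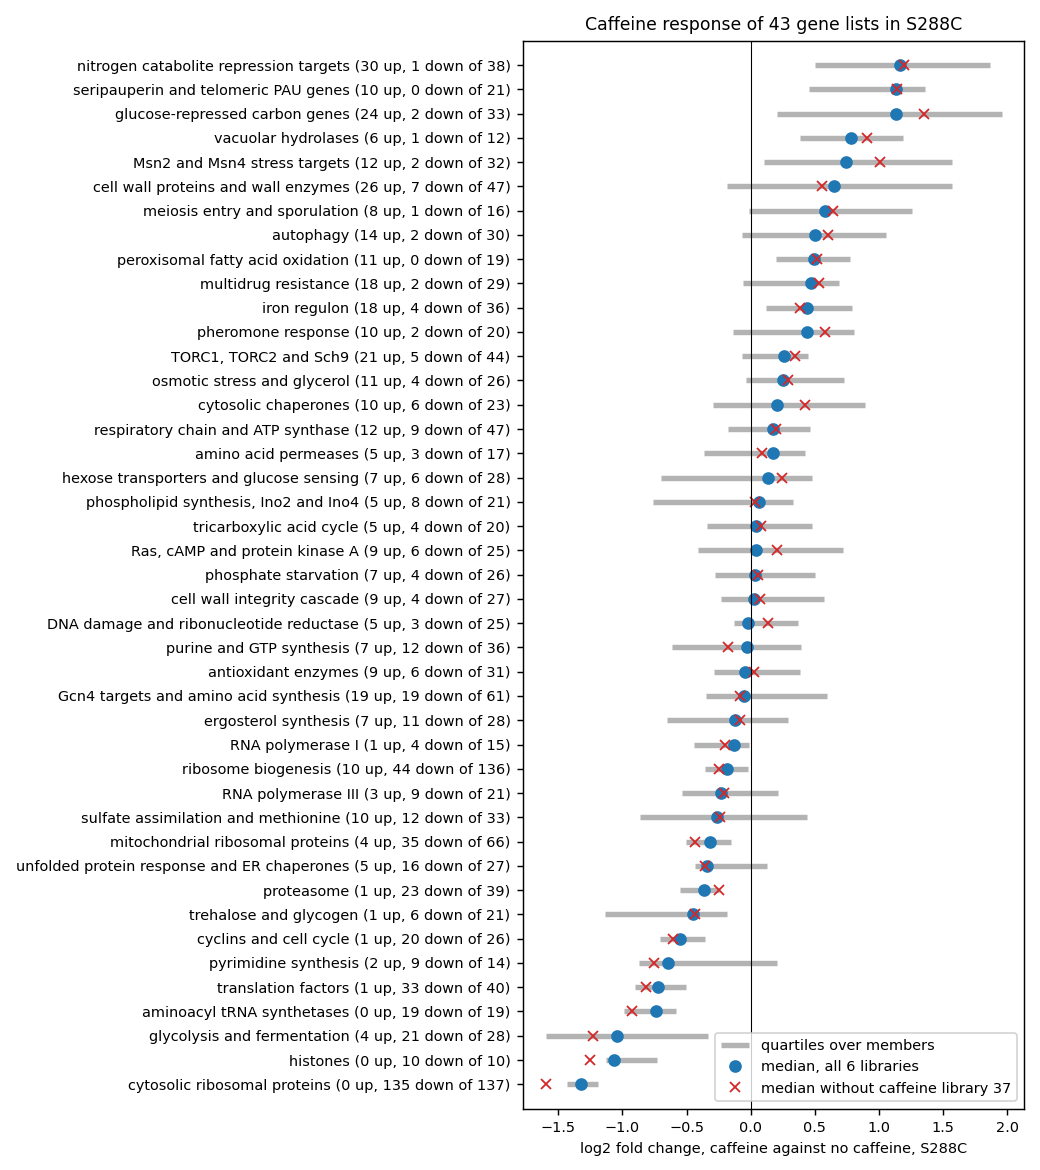
Median log2 fold change in caffeine (circles) and its value without caffeine library 37 (crosses) for 43 gene lists in S288C, with the quartiles over members as grey bars and, in the labels, how many of the tested members were called higher or lower. Cytosolic ribosomal proteins lie lowest at −1.32, and nitrogen catabolite repression targets highest at 1.16.

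Among the 15 highest log2 fold changes under the naming rule, which asks for a gene name, whole counts, a mean of 10 CPM or over, every library above 3 counts and groups without overlap, were genes of carnitine, citrate and aromatic amino acid metabolism and of stress proteins. YAT1, the outer mitochondrial carnitine acetyltransferase, had 4.80, 3.58 and 2.81 CPM without caffeine and 281, 393 and 292 CPM in caffeine (log2 fold change 6.42, SE 0.46, edgeR adjusted p = 2.21e-09). All 3 caffeine libraries stood more than 50-fold above all 3 without it. CRC1, the carnitine carrier of the inner mitochondrial membrane, went from 0.905 ± 0.33 to 26.5 ± 6.41 CPM (SD, n = 3 each; log2 fold change 4.85, SE 0.36, edgeR adjusted p = 3.56e-09). CIT2, the peroxisomal citrate synthase, had 60.9, 70.2 and 86.00 CPM without caffeine and 2497, 2080 and 2535 CPM in caffeine (log2 fold change 5.03, SE 0.59, edgeR adjusted p = 9.5e-07). ARO9, an aminotransferase of aromatic amino acids, had 17.6, 19.3 and 19.98 CPM without caffeine and 1171, 380.2 and 1177 CPM in caffeine (log2 fold change 5.59, SE 0.60, edgeR adjusted p = 3.08e-07). Library 37 was the lowest of the caffeine libraries for ARO9 and still above every library without caffeine. These 15 genes also hold SPG4 (6.37), HSP12 (5.55), DPI8 (5.13), INO1 (5.04), SNZ1 (5.04), BTN2 (4.77), OSW2 (4.73), ARO10 (4.67), DLD3 (4.53), PDH1 (4.48) and MNC1 (4.45).

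Among the 15 lowest were genes of mating type, glycolysis and biosynthesis. HO, the mating type switching endonuclease, whose S288C allele is inactive, had 84.7, 87.8 and 93.02 CPM without caffeine and 6.03, 9.21 and 6.94 CPM in caffeine (log2 fold change −3.59, SE 0.17, edgeR adjusted p = 1.21e-11). The α-factor gene MF(ALPHA)2 had 937, 853 and 909 CPM without caffeine and 68.9, 154 and 60.4 CPM in caffeine (log2 fold change −3.26, SE 0.28, edgeR adjusted p = 2.1e-08). TDH2, an isozyme of glyceraldehyde-3-phosphate dehydrogenase, had 8185, 9408 and 9402 CPM without caffeine and 748, 1672 and 776 CPM in caffeine (log2 fold change −3.08, SE 0.24, edgeR adjusted p = 4.78e-09). In each of these 3 genes library 37 was the highest of the caffeine libraries and did not reach the libraries without caffeine. The rest of the 15 were GSY1, a glycogen synthase (−3.18, with an adjusted p over 0.05 in DESeq2), the aldehyde dehydrogenases ALD6 (−2.75) and ALD5 (−2.74), the methionine permease MUP1 (−2.53), the flavohaemoglobin YHB1 (−2.52), MTC7 (−2.39), the uracil phosphoribosyltransferase FUR1 (−2.35), INA1 (−2.21), VHR2 (−2.21), the leucine pathway gene LEU1 (−2.20), the branched-chain aminotransferase BAT1 (−2.04) and the dihydroorotate dehydrogenase URA1 (−2.02). FUR1 had 225, 236 and 222 CPM without caffeine and 40.8, 49.7 and 43.7 CPM in caffeine (log2 fold change −2.35, SE 0.13, edgeR adjusted p = 7.13e-11). Its groups lay more than 4-fold apart and each varied little.

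**Figure D2:**
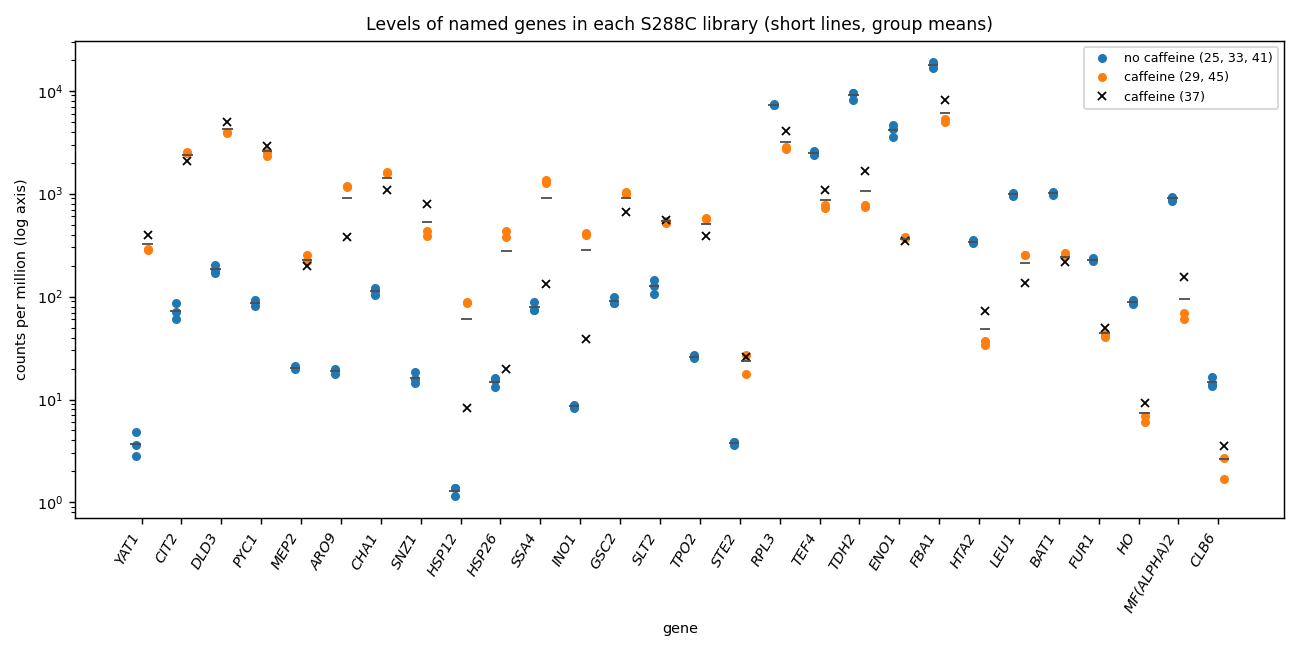
Level of 28 genes in each S288C library in CPM on a log axis, without caffeine (blue) and in caffeine (orange, with library 37 as a black cross), and group means as short lines. HSP26, SSA4, HSP12 and INO1 show library 37 well below the other caffeine libraries, while HO, FUR1 and CLB6 show all 3 caffeine libraries below all 3 without caffeine.

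Nearly all genes of the cytosolic ribosome fell. Of 137 tested ribosomal protein genes, 135 fell, with a median log2 fold change of −1.32 (−1.59 without library 37, when all 137 fell, and −0.94 with total-count scaling). RPL3, a protein of the large subunit and one of the most abundant of the list, had 7215, 7271 and 7509 CPM without caffeine and 2823, 4035 and 2701 CPM in caffeine (log2 fold change −1.20, SE 0.14, edgeR adjusted p = 9.78e-07). The groups did not overlap, and library 37 lay between libraries 29 and 45 and the libraries without caffeine. Of the 3 lowest members under the naming rule RPL31B alone had whole counts, with 669, 696 and 751 CPM without caffeine and 172, 317 and 148 CPM in caffeine (log2 fold change −1.73, SE 0.25, edgeR adjusted p = 1.08e-05). Reads of paralogous pairs were divided by kallisto, which gave 105 of the 137 genes fractional counts, meaning whole within 0.01 in fewer than 4 of the 6 libraries, so values of single paralogs are uncertain. As a group, ribosomal protein transcripts took 19.8%, 19.3% and 20.00% of all estimated counts without caffeine and 8.96%, 13.5% and 8.66% in caffeine. The groups did not overlap, and the exact 2-sided permutation test gave p = 0.1, the smallest it can give with 3 libraries against 3.

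Other parts of the translation machinery fell less. Of 40 translation factors 33 fell and 1 rose (median −0.72). TEF4, a subunit of elongation factor 1B, had 2383, 2619 and 2446 CPM without caffeine and 733, 1089 and 778 CPM in caffeine (log2 fold change −1.52, SE 0.14, edgeR adjusted p = 3.27e-08). The factor that rose was HEF3, a second copy of elongation factor 3, with 11.1, 13.04 and 10.8 CPM without caffeine and 110.4, 111 and 109 CPM in caffeine and fractional counts (log2 fold change 3.24, SE 0.31, edgeR adjusted p = 8.48e-08). All 19 of 19 tested aminoacyl tRNA synthetases fell (median −0.74), and 12 fell with total-count scaling. Among them were FRS2 (−1.29), SES1 (−1.13) and VAS1 (−0.78). Of 66 genes for mitochondrial ribosomal proteins 35 fell and 4 rose (median −0.32), but 47 fell and 0 rose without library 37. With total-count scaling 8 fell and 13 rose. RSM26 was the lowest of them, with 49.5, 52.2 and 45.3 CPM without caffeine and 17.9, 24.9 and 21.5 CPM in caffeine (log2 fold change −1.20, SE 0.10, edgeR adjusted p = 1.28e-08).

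A smaller share of ribosome assembly genes than of ribosomal protein genes fell, a difference that was not tested. Among 136 ribosome biogenesis genes, 44 fell, against 25.0% of all genes, and 10 rose, against 27.5% of all genes. In 62 of them all 3 caffeine libraries lay below all 3 without caffeine, and in 12 above (63.2% of all genes in either direction). The median was −0.18 (0.21 with total-count scaling, which turned its sign and left 12 lower and 37 higher). EMG1, a methyltransferase of the small subunit's RNA, had 112, 108 and 115 CPM without caffeine and 57.7, 60.7 and 55.5 CPM in caffeine (log2 fold change −0.95, SE 0.13, edgeR adjusted p = 3.7e-06), and CBF5, the pseudouridine synthase of H/ACA particles, fell by 0.80 on the log2 scale. KRI1, needed for small subunit assembly, had 204, 192 and 204 CPM without caffeine and 333, 331 and 283 CPM in caffeine (log2 fold change 0.66, SE 0.09, edgeR adjusted p = 9.52e-06). The biogenesis genes together took 1.62%, 1.51% and 1.61% of counts without caffeine and 1.73%, 1.78% and 1.78% in caffeine (exact 2-sided permutation p = 0.1). Their share was thus slightly higher in caffeine, where ribosomal protein transcripts took fewer of the counts. The promoters of these genes are known for the PAC element, GATGAG. It was present on either strand in 123 of 136 (90.4%) of biogenesis promoters, taken as 250 bases before and 50 after the start in R64, and in 1175 of 5848 (20.1%) of all tested promoters. Of promoters of genes called higher 300 of 1644 (18.2%) held it, and of genes called lower 298 of 1535 (19.4%). A second element known from these promoters, RRPE, was searched as AAAATTTT, which reads the same on both strands. It was present in 104 of 136 (76.5%) of biogenesis promoters and in 532 of 5848 (9.1%) of all tested promoters, with 74 of 1644 (4.5%) for genes called higher and 217 of 1535 (14.1%) for genes called lower. PAC thus occurred near its background share in both directions, while RRPE occurred below its background share among genes called higher and above it among genes called lower. One promoter of a gene that fell and one of a gene that rose are shown, with PAC in capitals.
NOP16, chrV:156686-156715, plus strand, 117 to 88 bases before the start: agaaaaataggcGATGAGataaatttataa
KRI1, chrXIV:55963-55992, minus strand, 95 to 66 bases before the start: tatatcaatCTCATCTCATCtagttaacag
NOP16, needed for the large subunit, had 108, 102 and 107 CPM without caffeine and 53.9, 59.6 and 52.7 CPM in caffeine (log2 fold change −0.93, SE 0.14, edgeR adjusted p = 1.2e-05), the opposite direction to KRI1, whose window holds PAC in 2 overlapping copies.

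Most genes of glycolysis and fermentation fell, and most glucose-repressed genes rose. Of 28 genes of glycolysis and fermentation 21 fell and 4 rose (median −1.05). FBA1, the aldolase and among the most abundant transcripts, had 16650, 18220 and 18840 CPM without caffeine and 5262, 8180 and 4923 CPM in caffeine (log2 fold change −1.55, SE 0.16, edgeR adjusted p = 2.72e-07). The isozymes moved by different amounts, with log2 fold changes of −1.11 for TDH3 and −3.08 for TDH2, −1.48 for ENO2 and −3.51 for ENO1. ENO1, an enolase that shares reads with ENO2 and had fractional counts, had 3575, 4657 and 4257 CPM without caffeine and 370.1, 347 and 380.0 CPM in caffeine. The 4 that rose were the mitochondrial alcohol dehydrogenase ADH3 (1.30), the 6-phosphofructo-2-kinase PFK26 (1.24), the pyruvate kinase PYK2 (0.96) and the pyruvate decarboxylase PDC6 (1.23, which lost its call when any 1 of libraries 25, 29, 33, 41 or 45 was left out). ADH3 had 489, 559 and 515 CPM without caffeine and 1061, 1783 and 999.5 CPM in caffeine (log2 fold change 1.30, SE 0.17, edgeR adjusted p = 3.87e-06). In the list of glucose transport and sensing 7 of 28 rose and 6 fell. HXK2, the main hexokinase, had 2062, 2563 and 2141 CPM without caffeine and 586, 1065 and 654 CPM in caffeine (log2 fold change −1.55, SE 0.19, edgeR adjusted p = 1.79e-06), while the hexose transporters HXT10 (2.57) and HXT15 (1.87, fractional counts) rose.

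Of 33 carbon genes that glucose represses 24 rose and 2 fell (median 1.13, 1.35 without library 37). The carnitine genes YAT1, YAT2 (3.23), CRC1 and CAT2 (1.32) all rose, as did the gluconeogenic PCK1 (1.75) and FBP1 (1.12), the zinc cluster activator SIP4 (4.44) and the activator ADR1 (2.46). SUC2, the invertase and a marker of glucose repression, did not pass the test, with 112, 130.1 and 113 CPM without caffeine and 95.1, 122 and 97.02 CPM in caffeine (log2 fold change −0.18, SE 0.36, edgeR adjusted p = 0.698). ICL1, the isocitrate lyase, did not pass it either (−0.01). The malate dehydrogenases MDH2 (−1.08) and MDH3 (−1.17) fell. Members of the list thus lay on both sides of 0.

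In the tricarboxylic acid cycle list 5 of 20 rose and 4 fell. CIT1, the mitochondrial citrate synthase, had 126, 169 and 150.3 CPM without caffeine and 825, 942 and 843 CPM in caffeine (log2 fold change 2.55, SE 0.25, edgeR adjusted p = 8.41e-08). PYC1, a pyruvate carboxylase that shares reads with PYC2 and had fractional counts, had 80.5, 89.5 and 92.8 CPM without caffeine and 2519, 2911 and 2315 CPM in caffeine (log2 fold change 4.88, SE 0.26, edgeR adjusted p = 7.13e-11), whereas PYC2 fell by 0.93 on the log2 scale. DLD3, a cytosolic enzyme of 2-hydroxyglutarate metabolism, had 170.4, 183 and 204 CPM without caffeine and 3977, 4993 and 3913 CPM in caffeine (log2 fold change 4.53, SE 0.27, edgeR adjusted p = 2.13e-10). CIT2, DLD3, CIT1 and PYC1 are known targets of the retrograde factors Rtg1 and Rtg3, and ACO1, IDH1 and IDH2 are too. These last 3, aconitase and the isocitrate dehydrogenase subunits, of which ACO1 and IDH1 were looked up after the others had been seen, stood at 0.49, 0.47 and −0.45 (edgeR adjusted p = 0.291, 0.295 and 0.289). In the respiratory chain list 12 of 47 rose and 9 fell (median 0.17). HAP4, the regulatory subunit of the respiratory activator, had 82.97, 86.01 and 68.9 CPM without caffeine and 35.1, 30.6 and 32.6 CPM in caffeine (log2 fold change −1.27, SE 0.31, edgeR adjusted p = 0.00205).

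Most genes for poor nitrogen sources rose. Of 38 targets of nitrogen catabolite repression 30 rose and 1 fell (median 1.16, 1.19 without library 37, 1.56 with total-count scaling). MEP2, the ammonium permease of highest affinity, had 19.8, 20.2 and 21.4 CPM without caffeine and 254, 199 and 224 CPM in caffeine (log2 fold change 3.47, SE 0.36, edgeR adjusted p = 2.17e-07). UGA2, the succinate semialdehyde dehydrogenase of GABA use, had 20.6, 20.4 and 20.8 CPM without caffeine and 155, 315 and 159 CPM in caffeine (log2 fold change 3.35, SE 0.38, edgeR adjusted p = 5.54e-07). Library 37 was the highest of the caffeine libraries for UGA2, and the log2 fold change was 2.93 without it. The general amino acid permease GAP1 (1.89), the allantoate permease DAL5 (1.40), the GABA permease UGA4 (2.17, 1.48 without library 37), the glutamate dehydrogenase GDH2 (1.78) and the proline permease PUT4 (2.45) rose, and so did GLN1, glutamine synthetase, with 997, 1107 and 1302 CPM without caffeine and 2813, 3238 and 2477 CPM in caffeine (log2 fold change 1.32, SE 0.15, edgeR adjusted p = 6.08e-07). The 1 member that fell was ASP1, a cytosolic asparaginase (−0.70), and PUT2 (−0.10) and CAR2 (−0.03) did not pass the test. Of the regulator genes, the activators GAT1 and GLN3 stood at 1.16 and 0.63, and the repressor gene DAL80, at no more than 4.48 CPM in any library, had the highest log2 fold change of the list, 3.48.

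The GATA factors bind GATAAG. It was found on either strand in 17 of 38 (44.7%) of promoters of this list, in 292 of 1644 (17.8%) of those of genes called higher, in 193 of 1535 (12.6%) of genes called lower and in 868 of 5848 (14.8%) of all tested promoters. The 3 permease genes below rose and hold the element, in capitals, on one of the strands.
MEP2, chrXIV:357208-357237, plus strand, 245 to 216 bases before the start: aagaccctgtgcCTTATCaatgaagtattc
GAP1, chrXI:514813-514842, plus strand, 250 to 221 bases before the start: ttaaacatGATAAGcgcatagttggggcaa
DAL5, chrX:719483-719512, plus strand, 183 to 154 bases before the start: atacggctaataCTTATCattatctggttt
GAP1 had 24.4, 25.1 and 29.8 CPM without caffeine and 83.7, 137 and 73.9 CPM in caffeine, and DAL5 11.8, 14.7 and 13.4 CPM without caffeine and 31.1, 37.4 and 37.1 CPM in caffeine. The caffeine libraries lay above the others in both.

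Several genes of amino acid breakdown and of vitamin B6 synthesis, chosen for their own changes and not counted as a list, were also higher in caffeine. ARO10, the phenylpyruvate decarboxylase, had 32.02, 32.1 and 32.8 CPM without caffeine and 1008, 373 and 1089 CPM in caffeine (log2 fold change 4.67, SE 0.38, edgeR adjusted p = 9.19e-09). CHA1, the serine and threonine deaminase, named after its values were seen, had 103, 122 and 114 CPM without caffeine and 1570, 1095 and 1630 CPM in caffeine (log2 fold change 3.66, SE 0.40, edgeR adjusted p = 3.93e-07). ARO80, the activator of ARO9 and ARO10, also looked up after their values were seen, rose by 0.74 on the log2 scale. The glycine cleavage genes GCV1 (2.04), GCV2 (2.90) and GCV3 (1.82) rose, and GCV2, the glycine decarboxylase subunit, had 45.04, 45.3 and 51.2 CPM without caffeine and 348, 376 and 332 CPM in caffeine (log2 fold change 2.90, SE 0.40, edgeR adjusted p = 6.13e-06). SNZ1, of vitamin B6 synthesis, had 14.4, 15.9 and 18.4 CPM without caffeine and 431, 787 and 384 CPM in caffeine (log2 fold change 5.04, SE 0.29, edgeR adjusted p = 1.49e-10), and its divergent neighbour SNO1, named after its values were seen, rose by 3.81. Here library 37 was the highest of the 3.

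Genes of amino acid synthesis moved in both directions. Of 61 genes 19 rose and 19 fell, against 27.5% and 25.0% of all genes. The median was −0.05 (0.35 with total-count scaling, when 32 rose and 9 fell). In the branched-chain pathway LEU1, the isopropylmalate isomerase, had 1012, 956 and 989.6 CPM without caffeine and 253, 137 and 252 CPM in caffeine (log2 fold change −2.20, SE 0.18, edgeR adjusted p = 8.08e-09). BAT1, the mitochondrial aminotransferase, had 1028, 1020 and 979.7 CPM without caffeine and 267, 216 and 251 CPM in caffeine (log2 fold change −2.04, SE 0.11, edgeR adjusted p = 8.02e-11), and LEU9 (−2.0), ILV3 (−1.75) and ILV5 (−1.43) fell too, while ILV6 stood at −0.27 (edgeR adjusted p = 0.384). BAT2, the cytosolic aminotransferase of the same amino acids, went the other way, with 346, 326 and 363 CPM without caffeine and 1203, 1588 and 1009 CPM in caffeine (log2 fold change 1.88, SE 0.19, edgeR adjusted p = 2.17e-07). LYS1, saccharopine dehydrogenase of lysine synthesis, had 48.3, 41.9 and 43.99 CPM without caffeine and 218, 194 and 192 CPM in caffeine (log2 fold change 2.17, SE 0.15, edgeR adjusted p = 1.46e-09), and CPA1, the small subunit of the arginine pathway's carbamoyl phosphate synthetase, 107, 113 and 125 CPM without caffeine and 503, 478 and 449 CPM in caffeine (log2 fold change 2.05, SE 0.11, edgeR adjusted p = 6.45e-11). The groups did not overlap in LEU1, BAT1, BAT2, LYS1 or CPA1. The homocitrate synthase genes LYS20 and LYS21, of the lysine pathway too, stood at 0.07 and −0.25 (edgeR adjusted p = 0.763 and 0.242, and LYS20 passed at 0.46 with total-count scaling). The transcript of the activator GCN4, whose output is set mainly by translation, stood at −0.10 on the log2 scale (edgeR adjusted p = 0.404). Its binding element TGACTC was in 33 of 61 (54.1%) of the promoters of this list and in 467 of 5848 (8.0%) of all tested promoters, 168 of 1644 (10.2%) for genes called higher and 111 of 1535 (7.2%) for genes called lower. Promoters of genes that fell (BAT1, ILV5) and rose (LYS1, SNZ1) hold it, in capitals on either strand.
BAT1, chrVIII:517349-517378, plus strand, 183 to 154 bases before the start: attgccttcttaTGACTCaaaattctattg
ILV5, chrXII:839376-839405, minus strand, 152 to 123 bases before the start: gatgacctaactTGACTCaatggcttttac
LYS1, chrIX:420957-420986, minus strand, 250 to 221 bases before the start: tGAGTCAaaaaagactcttatacatttata
SNZ1, chrXIII:458217-458246, plus strand, 191 to 162 bases before the start: gccatttcttcaTGACTCtgacacactctg
The match is a description of the letters, and promoters with it lay on both sides of the test.

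Among the 33 genes of sulfate assimilation and methionine 10 rose and 12 fell. With total-count scaling 13 rose and 6 fell. CYS4, the first enzyme from homocysteine to cysteine, had 906, 1080 and 1019 CPM without caffeine and 266, 254 and 272 CPM in caffeine (log2 fold change −1.92, SE 0.11, edgeR adjusted p = 8.02e-11). MUP1, the high-affinity methionine permease, had 304, 317 and 327 CPM without caffeine and 47.7, 63.8 and 52.9 CPM in caffeine (log2 fold change −2.53, SE 0.51, edgeR adjusted p = 0.00034), while SAM3, the permease of S-adenosylmethionine (1.99), MET30, the ubiquitin ligase subunit that restrains the pathway (1.73), and the sulfate permease SUL1 (1.23) rose. Among amino acid permeases 5 of 17 rose and 3 fell, with the largest rise in DIP5, for glutamate and aspartate (2.33).

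Genes of pyrimidine synthesis fell more often than those of purine synthesis, a difference that was not tested. Of 14 pyrimidine genes 9 fell and 2 rose (median −0.65), and 5 fell and 5 rose with total-count scaling. URA1 had 369, 439 and 394 CPM without caffeine and 101, 82.2 and 114 CPM in caffeine (log2 fold change −2.02, SE 0.16, edgeR adjusted p = 7.32e-09), and URA4 (−1.36) and URA5 (−0.60) fell. PPR1, the activator of URA1 and URA4, rose by 0.78. Of 36 purine and GTP genes 12 fell and 7 rose. The salvage enzyme HPT1, which turns hypoxanthine and guanine into nucleotides, had 189, 207 and 211 CPM without caffeine and 59.9, 85.7 and 57.3 CPM in caffeine (log2 fold change −1.58, SE 0.16, edgeR adjusted p = 1.91e-07). IMD3 (−1.47) and IMD4 (−1.55), inosine monophosphate dehydrogenases with reads shared between them, fell. Of the de novo steps ADE4 (1.07) and ADE8 (0.65) rose, and ADE13, adenylosuccinate lyase, had 441, 549 and 509 CPM without caffeine and 407, 733 and 479 CPM in caffeine (log2 fold change 0.11, SE 0.22, edgeR adjusted p = 0.696). ADE3, which is not itself one of these steps, rose too (1.27).

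Genes of nutrient signalling rose more often than they fell. Of 44 genes of TORC1, TORC2 and Sch9 21 rose and 5 fell (median 0.26), against 27.5% and 25.0% of all genes. TOR1, the kinase of the complex, had 68.1, 70.03 and 73.3 CPM without caffeine and 105, 70.8 and 105 CPM in caffeine (log2 fold change 0.41, SE 0.12, edgeR adjusted p = 0.00897). The groups overlapped through library 37, the value was 0.58 without that library, and the call was lost without library 29 or 45. TOD6, a repressor of ribosome biogenesis genes, had 29.2, 25.3 and 37.5 CPM without caffeine and 87.3, 79.5 and 81.2 CPM in caffeine (log2 fold change 1.43, SE 0.21, edgeR adjusted p = 1.14e-05), and CRF1, the corepressor of ribosomal protein genes, rose by 1.42. DOT6, the paralog of TOD6, fell by 0.50. In the Ras and protein kinase A list 9 of 25 rose and 6 fell. PDE1, the low-affinity phosphodiesterase that hydrolyses cAMP, had 52.5, 50.8 and 45.5 CPM without caffeine and 279.6, 279 and 284 CPM in caffeine (log2 fold change 2.50, SE 0.17, edgeR adjusted p = 1.39e-09). RAS1, the GTPase that activates adenylate cyclase, had 99.2, 95.8 and 101 CPM without caffeine and 27.1, 25.2 and 29.4 CPM in caffeine (log2 fold change −1.85, SE 0.14, edgeR adjusted p = 5.78e-09), and RAS2 fell by 0.98. The groups did not overlap in PDE1 or RAS1.

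Vacuolar and autophagy genes rose in larger shares than the 27.5% of all genes. Of 12 vacuolar hydrolases 6 rose and 1 fell, and of 30 autophagy genes 14 rose and 2 fell (medians 0.78 and 0.50). PRB1, proteinase B, had 294, 338 and 255 CPM without caffeine and 2080, 486 and 1934 CPM in caffeine (log2 fold change 2.34, SE 0.49, edgeR adjusted p = 0.000523). CPS1, carboxypeptidase S, had 96.7, 102 and 98.5 CPM without caffeine and 607, 296 and 609 CPM in caffeine (log2 fold change 2.35, SE 0.22, edgeR adjusted p = 5.04e-08). ATG8, the ubiquitin-like protein of the autophagosome membrane, had 12.7, 12.6 and 9.002 CPM without caffeine and 38.7, 20.9 and 35.8 CPM in caffeine (log2 fold change 1.48, SE 0.29, edgeR adjusted p = 0.00025). In PRB1 and ATG8 library 37 was the lowest of the caffeine libraries, and the log2 fold changes were 2.76 and 1.70 without it. ATG27, a membrane protein of vesicle cycling, fell by 1.03.

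Many wall protein genes rose. Of 47 wall proteins and wall enzymes 26 rose and 7 fell (median 0.65), against 27.5% and 25.0% of all genes. GSC2, the stress-induced subunit of glucan synthase, had 86.1, 98.2 and 86.3 CPM without caffeine and 994, 667 and 1042 CPM in caffeine (log2 fold change 3.32, SE 0.29, edgeR adjusted p = 2.36e-08). SED1, a major wall mannoprotein of stressed cells, had 2305, 2857 and 2593 CPM without caffeine and 7982, 7660 and 7136 CPM in caffeine (log2 fold change 1.55, SE 0.29, edgeR adjusted p = 0.000191). The groups did not overlap in either gene. NCW2 (3.01) and PIR3 (3.31, fractional counts) rose as well, and UTR2, a chitin transglycosylase (−1.65), and TIP1 (−1.62) fell. CCW12, a wall protein and among the most abundant transcripts, had 5531, 5284 and 5448 CPM without caffeine and 5150, 6470 and 4259 CPM in caffeine (log2 fold change −0.03, SE 0.13, edgeR adjusted p = 0.844). Of 27 genes of the signalling cascade 9 rose and 4 fell (median 0.03), against the same shares of all genes. SLT2, its MAP kinase, had 127, 144 and 106 CPM without caffeine and 520.3, 555 and 542 CPM in caffeine (log2 fold change 2.10, SE 0.21, edgeR adjusted p = 1.04e-07), with the 3 caffeine libraries close together. KDX1, a pseudokinase related to SLT2 (2.28, 1.89 without library 37), and MTL1, a wall sensor (2.09, fractional counts), rose. RHO1, the GTPase at the head of the cascade, stood at −0.04 (edgeR adjusted p = 0.743).

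Stress genes split the caffeine libraries. Of 32 targets of Msn2 and Msn4 12 rose and 2 fell (median 0.74, 1.01 without library 37). HSP26, a small heat shock protein that holds unfolded proteins, had 13.1, 16.3 and 15.4 CPM without caffeine and 382, 19.9 and 430.2 CPM in caffeine (log2 fold change 4.22, SE 0.88, edgeR adjusted p = 0.000469). SSA4, the heat-inducible HSP70, had 73.4, 73.8 and 89.5 CPM without caffeine and 1257, 133 and 1353 CPM in caffeine (log2 fold change 3.54, SE 0.50, edgeR adjusted p = 8.82e-06). HSP12, a membrane-associated stress protein, had 1.37, 1.38 and 1.15 CPM without caffeine and 89.2, 8.30 and 86.2 CPM in caffeine (log2 fold change 5.55, SE 1.02, edgeR adjusted p = 0.000142). Libraries 29 and 45 stood far above the group without caffeine in these genes, and library 37 stood between them, close to it for HSP26 and SSA4. HSP42 had 302, 383 and 290.0 CPM without caffeine and 1281, 263 and 1242 CPM in caffeine (log2 fold change 1.52, SE 0.74, edgeR adjusted p = 0.0927), with library 37 below the group without caffeine, and passed the test without that library at 1.96 (edgeR adjusted p = 0.0351). HSP104, the disaggregase, had 1544, 1881 and 1650 CPM without caffeine and 3555, 895 and 3783 CPM in caffeine and did not pass with (0.326) or without it (edgeR adjusted p = 0.109). In library 37 the list's median against the libraries without caffeine, on the scale of log2(CPM + 1), was −0.04, and in libraries 29 and 45 it was 0.92 and 0.89. Against the rise of these genes, GPD1, the glycerol-3-phosphate dehydrogenase (fractional counts), had 537, 605 and 517 CPM without caffeine and 106, 69.1 and 99.3 CPM in caffeine (log2 fold change −2.59, SE 0.23, edgeR adjusted p = 2.36e-08), and PNC1, the nicotinamidase, fell by 1.30.

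The stress response element CCCCT was in 20 of 32 (62.5%) of promoters of this list, in 407 of 1644 (24.8%) of genes called higher, 282 of 1535 (18.4%) of genes called lower and 1269 of 5848 (21.7%) of all tested promoters. It was present in a gene that rose (HSP12) and in one that fell (PNC1), and is shown in capitals on either strand.
HSP12, chrVI:107012-107041, plus strand, 244 to 215 bases before the start: ctagatctacagCCCCTggaaaatcgtttg
SSA4, chrV:364398-364427, plus strand, 191 to 162 bases before the start: attcaataagcaAGGGGggaagctccttag
HSP42, chrIV:806403-806432, plus strand, 218 to 189 bases before the start: ctgctcAGGGGcgaatacAGGGGcggcctt
PNC1, chrVII:428161-428190, minus strand, 243 to 214 bases before the start: agttcttcaAGGGGcAGGGGtttccgtttg
In the same order these genes had log2 fold changes of 5.55, 3.54, 1.52 and −1.30.

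**Figure D3:**
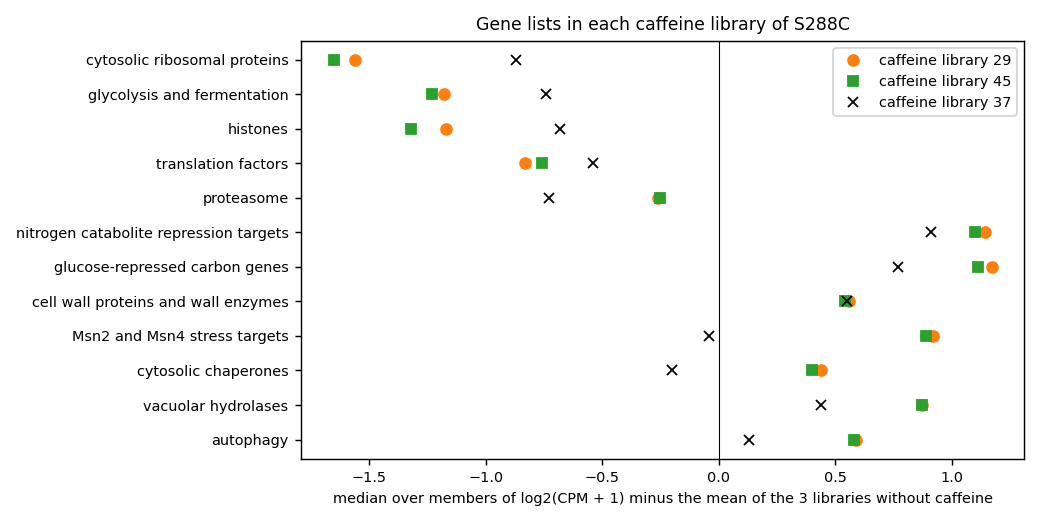
Median over the members of 12 gene lists of log2(CPM + 1) in each caffeine library of S288C minus the mean of the 3 libraries without caffeine. Library 37 (crosses) is nearer to 0 than libraries 29 and 45 for ribosomal proteins (−0.87 against −1.56 and −1.65) and lies at −0.04 for the Msn2 and Msn4 list, while wall proteins are alike in all 3.

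Of 23 cytosolic chaperone genes 10 rose and 6 fell. SSB1, the HSP70 on the ribosome, which shares reads with SSB2, had 4432, 4832 and 4803 CPM without caffeine and 1766, 2573 and 1695 CPM in caffeine (log2 fold change −1.22, SE 0.15, edgeR adjusted p = 1.67e-06), and SSB2 fell by 0.97. FES1, an exchange factor of HSP70, had 71.8, 70.6 and 64.03 CPM without caffeine and 318, 153 and 385 CPM in caffeine (log2 fold change 2.05, SE 0.20, edgeR adjusted p = 1.15e-07), and APJ1, a cochaperone, rose by 2.86. Of 27 genes of the endoplasmic reticulum's folding response 16 fell and 5 rose (2 and 10 with total-count scaling), with KAR2, its HSP70, at 0.21 (edgeR adjusted p = 0.452, 0.00434 without library 37, when it was 0.53). Of 21 genes of storage carbohydrates 6 fell (4 without library 37) and 1 rose, against 25.0% and 27.5% of all genes, and 3 fell and 2 rose with total-count scaling. TPS1, trehalose-6-phosphate synthase, stood at −1.41.

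The proteasome and its activator moved apart. RPN4, the activator of proteasome genes, had 92.6, 85.7 and 75.8 CPM without caffeine and 501, 128 and 565 CPM in caffeine (log2 fold change 2.23, SE 0.34, edgeR adjusted p = 1.84e-05). Of 39 tested genes of this list, RPN4 among them, 23 fell (17 without library 37) and RPN4 alone rose, with a median of −0.36 (−0.25 without library 37, 0.04 with total-count scaling, which turned its sign and left 3 higher and 2 lower). On the scale of log2(CPM + 1), the list's median against the libraries without caffeine was −0.73 in library 37 and −0.26 and −0.25 in libraries 29 and 45. Library 37 thus had both the lowest list median and the least RPN4 of the caffeine libraries. It is 1 library, and a link between the values was not tested. PUP3, a subunit of the core, had 221, 203 and 216 CPM without caffeine and 114, 105 and 97.6 CPM in caffeine (log2 fold change −1.01, SE 0.15, edgeR adjusted p = 9.62e-06). RPN5, a subunit of the lid, had 241, 234 and 237 CPM without caffeine and 242, 218 and 258 CPM in caffeine (log2 fold change 0.01, SE 0.07, edgeR adjusted p = 0.897). The PACE element GGTGGCAAA, to which Rpn4 binds, was in 28 of 39 (71.8%) of promoters of the list and in 70 of 5848 (1.2%) of all tested promoters. It is shown in capitals for both subunits.
PUP3, chrV:349510-349539, minus strand, 193 to 164 bases before the start: tggcactgccGGTGGCAAAaaagtgcaaat
RPN5, chrIV:190776-190805, plus strand, 148 to 119 bases before the start: ttgacttttcGGTGGCAAAatgcaaagggg
PUP3 fell and RPN5 did not pass the test, and both hold the element.

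Drug exporters rose in part. Of 29 genes of multidrug resistance 18 rose and 2 fell (median 0.47). PDR10, an ABC transporter, had 27.00, 26.7 and 31.4 CPM without caffeine and 427, 188 and 436 CPM in caffeine (log2 fold change 3.63, SE 0.24, edgeR adjusted p = 1.39e-09). TPO2, a polyamine exporter with fractional counts, had 25.2, 27.00 and 25.9 CPM without caffeine and 569.6, 384 and 575 CPM in caffeine (log2 fold change 4.29, SE 0.46, edgeR adjusted p = 2.78e-07), and RTA1, a membrane protein of lipid and drug tolerance, rose by 3.58. PDR5, the main drug pump, had 1856, 1752 and 1758 CPM without caffeine and 2550, 1888 and 2667 CPM in caffeine (log2 fold change 0.40, SE 0.14, edgeR adjusted p = 0.0184), and the call was lost without library 29 or 45. SNQ2, an ABC transporter linked to caffeine export, had 327, 337 and 357 CPM without caffeine and 662, 328 and 729 CPM in caffeine (log2 fold change 0.75, SE 0.23, edgeR adjusted p = 0.00923), with library 37 at the level of the libraries without caffeine, and lost its call without library 45. QDR2, a transporter of the major facilitator family, had 244, 249 and 234 CPM without caffeine and 57.1, 79.3 and 54.1 CPM in caffeine (log2 fold change −1.93, SE 0.18, edgeR adjusted p = 4.57e-08), and the exporter of weak acids PDR12 fell by 1.54.

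Lipid genes changed in both directions. INO1, inositol-3-phosphate synthase, had 8.81, 8.59 and 8.30 CPM without caffeine and 396, 38.4 and 413 CPM in caffeine (log2 fold change 5.04, SE 0.63, edgeR adjusted p = 1.93e-06). Library 37 lay far below the other caffeine libraries and above those without it, and the log2 fold change was 5.56 without it. OPI3, a phospholipid methyltransferase, rose by 1.98, whereas CHO2, which acts before it, fell by 1.25, as did the fatty acid desaturase OLE1 (−1.75) and the fatty acid synthase gene FAS1 (−1.14). In ergosterol synthesis 7 of 28 rose and 11 fell, with ERG1 at 0.84 and ERG20 at −0.86. Of 19 peroxisomal genes 11 rose, with PEX21 highest at 1.35, while the oxidation enzymes POX1 (0.08) and POT1 (−0.15) did not pass the test.

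Most cyclin and all histone genes fell. Of 26 cyclins and cell cycle genes 20 fell and 1 rose (median −0.55), and 7 fell with total-count scaling. CLB6, an S phase cyclin, had 14.1, 13.5 and 16.5 CPM without caffeine and 1.70, 3.54 and 2.67 CPM in caffeine (log2 fold change −2.50, SE 0.36, edgeR adjusted p = 8.96e-06). CLN2, a G1 cyclin, had 162, 148 and 169 CPM without caffeine and 60.97, 124 and 65.7 CPM in caffeine (log2 fold change −0.93, SE 0.20, edgeR adjusted p = 0.000592). For CLN2 the value was −1.33 without library 37, which lay between the groups. All 10 of 10 histone genes fell (median −1.07), and HTB2, an H2B gene, had 397, 314 and 366 CPM without caffeine and 67.5, 140.5 and 67.1 CPM in caffeine (log2 fold change −1.97, SE 0.24, edgeR adjusted p = 1.64e-06). HTA2, its H2A partner with fractional counts, had 354, 328 and 343 CPM without caffeine and 33.7, 72.97 and 36.99 CPM in caffeine (log2 fold change −2.84, SE 0.22, edgeR adjusted p = 4.78e-09). ASH1, a repressor of HO, did not pass the test (−0.03, edgeR adjusted p = 0.844), and SWI5, the activator of HO, stood at −0.36 (edgeR adjusted p = 0.0424, over 0.05 when any 1 of libraries 25, 29, 33, 41 and 45 was left out, and 0.03 on the log2 scale with total-count scaling). Both were looked up after HO was seen.

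Genes of both mating types changed, in opposite directions. The 4 tested genes specific to α cells fell, namely MF(ALPHA)2, STE3, the receptor of a-factor (−1.85, fractional counts), SAG1, the α-agglutinin (−1.34), and MF(ALPHA)1 (−1.27). MF(ALPHA)1 had 1107, 1105 and 1061 CPM without caffeine and 418, 537 and 398 CPM in caffeine (log2 fold change −1.27, SE 0.12, edgeR adjusted p = 7.07e-08). The 6 genes specific to a cells rose. STE2, the receptor of α-factor, had 3.85, 3.63 and 3.83 CPM without caffeine and 17.6, 25.9 and 27.1 CPM in caffeine (log2 fold change 2.64, SE 0.32, edgeR adjusted p = 1.37e-06), and STE6, the exporter of a-factor, 12.4, 12.7 and 13.02 CPM without caffeine and 54.1, 37.9 and 66.8 CPM in caffeine (log2 fold change 2.06, SE 0.20, edgeR adjusted p = 1.08e-07). MFA1, an a-factor gene, had 0 to 3 counts per library without caffeine and 33 to 62 in caffeine, which is at least 11.7-fold higher when each library without caffeine is set to 3 counts. HMRA1 had 0 or 1 count in these 6 libraries. Of 20 pheromone response genes 10 rose and 2 fell, with PRM1, of membrane fusion, at 2.33 and the G protein subunit STE4 at −1.07. In the meiosis list 8 of 16 rose and 1 fell, with REC8, the meiotic cohesin subunit, highest (2.86), at most 10.2 CPM.

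In the remaining lists the changes were mixed. Of 36 iron genes 18 rose and 4 fell. HMX1, haem oxygenase, had 10.4, 8.72 and 10.2 CPM without caffeine and 58.9, 78.9 and 49.4 CPM in caffeine (log2 fold change 2.68, SE 0.27, edgeR adjusted p = 1.7e-07), whereas FET3, the high-affinity iron oxidase, had 1005, 1028 and 895 CPM without caffeine and 879.8, 1470 and 805 CPM in caffeine (log2 fold change 0.11, SE 0.24, edgeR adjusted p = 0.73). In the phosphate list 7 of 26 rose and 4 fell, with PHM8 at 2.45 and the acid phosphatase PHO3 at −2.25 (fractional counts). Among antioxidant enzymes 9 of 31 rose and 6 fell, SRX1, sulfiredoxin, leading with 3.83 and the superoxide dismutase SOD1 at −1.01. Of 26 osmotic stress genes 11 rose and 4 fell, and HOR7, a small stress protein, had 104, 86.1 and 89.3 CPM without caffeine and 1010, 350.0 and 878 CPM in caffeine (log2 fold change 3.0, SE 0.39, edgeR adjusted p = 2.93e-06). Of 21 seripauperin (PAU) genes 10 rose (median 1.13), in a family whose near-identical copies share reads, so that single members are uncertain. PAU5, of those with whole counts, had 7.81, 6.84 and 4.85 CPM without caffeine and 17.7, 28.3 and 15.6 CPM in caffeine (log2 fold change 1.65, SE 0.23, edgeR adjusted p = 7.08e-06).

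The transcripts that filled the libraries also changed place. On the TPM scale, which is per length, TDH3 was the highest of all without caffeine, with 20460 ± 978 TPM, and had 13190 ± 1619 TPM in caffeine (SD, n = 3 each), where YDR524C-B had 17040 ± 3468 TPM and CCW12 16670 ± 2090 TPM. SPO24, a short transcript of sporulation, had 1895, 1838 and 1963 TPM without caffeine and 19420, 8318 and 17130 TPM in caffeine. It thereby entered the 10 highest transcripts by mean TPM over the 6 libraries, and library 37 was again the lowest of the caffeine libraries. On the CPM scale SPO24 had a log2 fold change of 2.46 (SE 0.43, edgeR adjusted p = 8.43e-05). Of the other 9, FBA1, ENO2, RPS31, TDH3 and TEF2 fell, and TEF1, CCW12, CWP2 and YDR524C-B had log2 fold changes between −0.28 and 0.44 with adjusted p-values over 0.05 in edgeR.

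A small set of genes with deletion phenotypes in caffeine was read out in the same fit. The 9 genes are those that 3 short lists of the study hold for caffeine, namely phenotypes found in all 4 deletion collections (CIN8, PPZ1 and TOR1), phenotypes that reverse between strains (CCS1 and RPL43A) and genes also met by a variant association (AHC2, GIS1, MPC2 and HOS4), and they leave out the rest of the scored deletions. Of these 9 genes, HOS4, PPZ1, MPC2 and TOR1 rose and RPL43A and AHC2 fell, against a share of 52.5% of all genes. MPC2, a subunit of the mitochondrial pyruvate carrier, had 155, 179.5 and 167 CPM without caffeine and 445, 285 and 418 CPM in caffeine (log2 fold change 1.19, SE 0.16, edgeR adjusted p = 4.09e-06). PPZ1, a phosphatase of salt tolerance, had 82.4 ± 4.17 CPM without caffeine and 136 ± 11.1 CPM in caffeine (SD, n = 3 each; log2 fold change 0.72, SE 0.13, edgeR adjusted p = 0.000119), and HOS4, a subunit of a deacetylase complex, rose by 0.67. RPL43A, with fractional counts, fell by 1.05. The call of AHC2 (−0.38) was lost when any 1 of libraries 25, 29, 33, 37 and 41 was left out, and its value was 0.02 with total-count scaling. CIN8 (0.25), CCS1 (−0.28) and GIS1 (−0.34) did not pass the test (edgeR adjusted p = 0.164, 0.0508 and 0.0776).

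The caffeine response of S288C was then tested against that of each other strain, as an interaction in the same edgeR fit. LEU2 and LYS2, deleted in BY4742 and at 5 counts or fewer in its libraries, had 542 to 6204 and 1571 to 6857 counts in those of the other strains. URA3, deleted in BY4742 too, had at most 2 counts in its libraries and 1 to 67845 in those of the other strains. Strain background and these deletions were thus not separated in the interactions, and the part of either was not tested. The response of S288C differed from that of YPS606 in 819 genes (12.8%), of Y55 in 1860 (29.1%) and of UWOPS87_2421 in 1418 (22.2%). Without library 37 these numbers were 1292, 2190 and 1945, and without library 45 the number against YPS606 was 519. Without libraries 27, 28, 31 and 32, whose URA3 counts went against those of their groups, they were 620, 1189 and 789, of which 612, 1141 and 773 were shared with the fit of all libraries, and this fit had 2 libraries in each Y55 and UWOPS87_2421 group. In 516 genes (8.06%) all 3 interactions passed with 1 sign, 230 with a more positive and 286 with a more negative response in S288C, and 147 and 158 without libraries 27, 28, 31 and 32. The 3 tests share the S288C libraries, and few genes separated Y55 from UWOPS87_2421, so passing in all 3 is not agreement of 3 independent comparisons. The Y55 and UWOPS87_2421 libraries differed from each other in 4 genes without caffeine and 4 in caffeine by edgeR (245 and 124 at an unadjusted p under 0.05), and in the response itself in 0 (156 at an unadjusted p under 0.05). Without libraries 27, 28, 31 and 32 these numbers were 6, 6 and 1. The strains' own responses held 2593 called genes in YPS606, 922 in Y55 and 1771 in UWOPS87_2421, against 3362 in S288C, and 315 in Y55 and 796 in UWOPS87_2421 without those libraries.

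The 8 genes with the most positive differences in S288C held DPI8, INO1, PUT4, TMA10, MPC3, CPP3, YAT1 and HOR7. These and the 8 most negative were filtered on level and whole counts in the S288C libraries alone. Their levels in the other strains are not given here and may be low. DPI8, a gene of unknown role, had 11.1, 9.09 and 8.24 CPM without caffeine and 334, 411 and 256 CPM in caffeine in S288C, and changed by 5.13 on the log2 scale, against 0.93 in YPS606, 0.65 in Y55 and 0.80 in UWOPS87_2421 (interactions 4.21, 4.49 and 4.33, edgeR adjusted p at most 0.00108). INO1 rose by 5.04 in S288C and had 1.41 in YPS606, 0.21 in Y55 and 0.65 in UWOPS87_2421. PUT4, the proline permease, had 3.11, 3.95 and 3.83 CPM without caffeine and 25.7, 16.7 and 17.1 CPM in caffeine, and its log2 fold change of 2.45 stood against −0.70 in YPS606, −1.30 in Y55 and −1.64 in UWOPS87_2421, the opposite sign in each. TMA10 (1.91 in S288C) and MPC3, a pyruvate carrier subunit (1.13, edgeR adjusted p = 0.0579 in S288C itself), were likewise negative in each other strain, at −1.22 in YPS606, −1.58 in Y55 and −1.48 in UWOPS87_2421 for TMA10. Without libraries 27, 28, 31 and 32 the MPC3 difference from Y55 no longer passed, and the other 15 of the 16 genes here passed all 3 tests. YAT1, CPP3 and HOR7 rose in S288C by 6.42, 4.35 and 3.0, and YAT1 also rose in the others, at 3.95 in YPS606, 3.04 in Y55 and 3.80 in UWOPS87_2421.

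The 8 with the most negative differences were led by HO, which had 0.35 in YPS606, −0.29 in Y55 and −0.59 in UWOPS87_2421 (edgeR adjusted p of the interactions at most 4.26e-08). TIP1, a wall mannoprotein, had 798, 987 and 794 CPM without caffeine and 294, 249.8 and 298 CPM in caffeine in S288C (log2 fold change −1.62, SE 0.24, edgeR adjusted p = 1.42e-05) and rose elsewhere, with 1.37 in YPS606, 1.34 in Y55 and 1.45 in UWOPS87_2421. The transporters AQR1 (−1.37) and QDR2 (−1.93) fell in S288C and had positive values in each other strain, 0.87 in YPS606, 0.89 in Y55 and 0.90 in UWOPS87_2421 for AQR1. YHB1 stood at −2.52 in S288C and had 2.47 in YPS606, −0.24 in Y55 and −0.12 in UWOPS87_2421. TDH2 fell in all 4 strains, with −3.08 in S288C and −1.05 in YPS606, −0.82 in Y55 and −1.01 in UWOPS87_2421. URA1 had −0.26 in YPS606, 0.63 in Y55 and 0.86 in UWOPS87_2421. MTD1, a folate enzyme of purine synthesis, had 66.3, 74.1 and 84.3 CPM without caffeine and 68.3, 142 and 65.4 CPM in caffeine in S288C (log2 fold change 0.29, SE 0.31, edgeR adjusted p = 0.446) and 2.0 in YPS606, 2.04 in Y55 and 2.26 in UWOPS87_2421. For MTD1 library 37 alone of the S288C caffeine libraries lay above those without caffeine. Of the purine list 12 of 36 were more negative in S288C in all 3 tests, as were 30 of 66 genes of the mitochondrial ribosome, against 286 of 6400 genes in all. Without libraries 27, 28, 31 and 32 these counts were 8, 17 and 158. ADE13, named after its values were seen, stood at 0.11 in S288C and had 1.51 in YPS606, 1.87 in Y55 and 1.92 in UWOPS87_2421. TGACTC, the letters that Gcn4 and the purine activator Bas1 bind, was in 15 of 36 (41.7%) of promoters of the purine list and in 467 of 5848 (8.0%) of all tested promoters. Whether the element bears on the strain differences was not tested. The promoter of ADE1, of the same pathway, holds it, in capitals on both strands.
ADE1, chrI:169142-169171, plus strand, 233 to 204 bases before the start: tattcacGAGTCAgtcTGACTCttgcgaga
ADE1 had 243, 262 and 267 CPM without caffeine and 308, 569.6 and 272 CPM in caffeine in S288C (log2 fold change 0.57, SE 0.31, edgeR adjusted p = 0.134) and 2.0 in YPS606, 2.26 in Y55 and 2.31 in UWOPS87_2421. Library 37 was the highest of the caffeine libraries for ADE1, and the S288C value was 0.17 without it (edgeR adjusted p = 0.671). The mitochondrial ribosome list had a median log2 fold change of −0.32 in S288C, 0.20 in YPS606, 0.25 in Y55 and 0.23 in UWOPS87_2421.

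**Figure D4:**
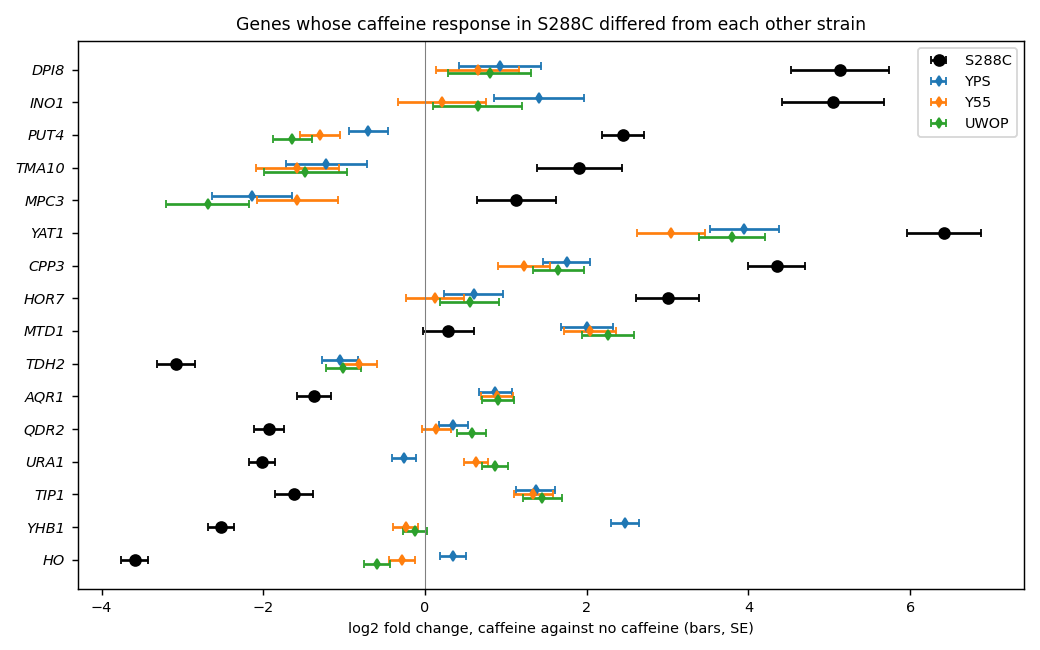
Log2 fold change in caffeine (points) with its standard error (bars) in each of the 4 strains for the 16 genes with the largest differences of 1 sign between S288C and all 3 other strains. S288C (black) lies to the right of the others for DPI8, INO1 and PUT4 and to the left for HO, YHB1 and TIP1.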

How the data were processed

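The authors trimmed single-end reads with Trimmomatic 0.36 and pseudo-aligned them to the yeast reference transcripts with kallisto 0.44.0 (build R64 per the labels), and deposited 1 table of estimated counts, effective lengths and TPM per library. TPM values were deposited as kallisto scales them, per effective length and library total. No strand option is given in the sources used here, so overlapping and antisense genes are uncertain. The authors' DESeq2 tables of strains against S288C, which hold log2 fold changes and p-values, were not used.

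Estimated counts were rounded and fitted in edgeR 4.0.16 (R 4.3.3, limma 3.58.1) over all 24 libraries with 1 coefficient for each of the 8 groups, TMM factors and filterByExpr. Caffeine was tested against no caffeine in S288C, and against the same contrast in each other strain, by quasi-likelihood tests with Benjamini-Hochberg adjustment over 6400 genes and a threshold of 0.05. Standard errors came from the log2 fold change and its F statistic. The 6 S288C libraries held 13967433 to 24942687 estimated counts. The fit was tested on simulated counts. Alternatives were DESeq2 1.42.0, other scalings, filters, thresholds, length offsets and each library left out.

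Gene lists and the genes compared were chosen with earlier results of these data known, so list counts are descriptions and no p was computed for a list. Under the naming rule the text names the 15 highest and 15 lowest called genes that had whole counts, a mean of 10 CPM or over, every library above 3 counts and groups without overlap, the 3 highest, 3 lowest and 2 most abundant members of each list, genes that check the labels, the 10 most abundant transcripts, the 8 most positive and 8 most negative strain differences, and 9 genes with listed deletion phenotypes. ACO1, ADE1, ADE4, ADE8, ADE13, ADR1, ARO80, ASH1, CAT2, CHA1, DAL5, FBP1, GAP1, GAT1, GCN4, GDH2, GLN3, ICL1, IDH1, ILV3, ILV6, LYS20, LYS21, PCK1, PYK2, SIP4, SNO1, SUC2, SWI5, UGA4 and YAT2 were named after their values were seen. Coordinates and promoter sequences come from RefSeq's R64 genome and annotation, to which 6026 of 6713 transcripts matched by name, 6021 of them with equal length. Promoters were 300 bases long and were searched for exact motifs on both strands. One gene list is not reported here.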

Additional observations from a re-analysis of the deposited data

Results flagged for a closer look

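The caffeine response of S288C differed from that of YPS606 in 819 genes, of Y55 in 1860 and of UWOPS87_2421 in 1418, by edgeR's test of the difference itself. These 3 tests share the S288C libraries, and the numbers for Y55 and UWOPS87_2421 were 1189 and 789 without libraries 27, 28, 31 and 32.

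For 16 genes the difference passed in all 3 tests with 1 sign, and the smallest of the 3 differences, on the log2 scale, is given here. More positive in S288C were DPI8 (4.21), INO1 (3.63), PUT4 (3.15), TMA10 (3.13), MPC3 (2.72), CPP3 (2.60), YAT1 (2.47) and HOR7 (2.41). More negative were HO (−3.0), TIP1 (−2.96), YHB1 (−2.27), AQR1 (−2.25), QDR2 (−2.08), TDH2 (−2.03), URA1 (−1.76) and MTD1 (−1.71). These genes were picked for the size of their differences, which are a description.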

How the results depend on the processing

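The number of genes called in S288C was 3362, between 2573 and 3928 under other scalings, DESeq2 (3449), other filters, length offsets, a fit of the 6 libraries alone and an adjusted p under 0.01, 1057 with a change of at least 2-fold, and 2919 to 3406 with each S288C library left out. The interactions gave 519 to 1292 genes for YPS606, 1432 to 2190 for Y55 and 974 to 1945 for UWOPS87_2421 with 1 library left out, the lowest for YPS606 without library 45 and the highest without library 37. Leaving out libraries of the other strain was added after the data were seen, and gave 541 for YPS606 without its library 30. Without libraries 27, 28, 31 and 32 together, also added after the data were seen, the numbers were 620 for YPS606, 1189 for Y55 and 789 for UWOPS87_2421. An adjusted p under 0.01 left 360, 989 and 640 genes, and a difference of at least 2-fold 271, 628 and 435.

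With total-count scaling the log2 fold changes of 8 genes changed sign, to 0.37 for CAR2, 0.35 for RHO1, 0.35 for CCW12, 0.36 for ASH1, 0.018 for AHC2, 0.025 for SWI5, 0.29 for GCN4 and 0.39 for ICL1. That scaling moved all genes up by 0.40. Of 47 list medians it moved 45 by more than their spread between replicates, and leaving out library 37 moved 8. The ribosomal protein share changed by −13.7 points of TPM, against −9.33 points of counts, and the biogenesis share by 0.128 against 0.185. Over all alternatives the 216 named genes kept their direction and call in 2957 values, gained a call in 29 and lost it in 30, and the strain differences of the 16 genes kept theirs in 863 of 864, the other being that of MPC3 against Y55 without those 4 libraries (1.68). No paired analysis was run, because the labels give each library a number of its own and no 2 groups share one. The numbers run through the groups in the same order from 25 to 32, 33 to 40 and 41 to 48, and libraries 27, 28, 31 and 32 lie in the first run. The labels do not call these runs sets of replicates, and no block on them was fitted.

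With 3 libraries a group the exact test of a single value cannot go below 0.1. Transcripts of near-identical genes are limited by how reads were divided.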

Other observations

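Lists not described above had mixed calls in S288C. Of 15 genes of RNA polymerase I and its factors 1 rose and 4 fell, and of 21 genes of RNA polymerase III and its factors 3 rose and 9 fell. In the DNA damage and ribonucleotide reductase list 5 of 25 rose and 3 fell, and in the phospholipid list 5 of 21 rose and 8 fell. With total-count scaling the medians of the first 3 of these lists turned positive.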
